A study of Mus musculus with 5 samples.

Results

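Kinesins and dyneins are the motor proteins that walk along microtubules, and the genes described here are the 54 protein-coding genes of the mouse whose symbols name a kinesin (Kif and Kifc), a kinesin light chain (Klc), or a subunit of cytoplasmic dynein 1 or 2 (Dync1 and Dync2). They were chosen by symbol alone, from 47729 genes in the deposited table, of which 21620 were protein-coding, and all 54 genes of the annotation that fit the rule were in the table. The rule also takes Kif1bp, a protein that binds kinesin motor domains and is no motor itself, and it leaves out Kifap3, the adaptor of kinesin-2. RNA sequencing was done on brain RNA of 5 male mice of the inbred strain C57BL/6 aged 30 months, all in 1 group with no treatment or altered allele named. Values by mouse are given throughout in the order of mice 7, 8, 9, 10 and 11, the numbers in the labels. The labels speak of animals only in the title of the study and do not say which brain regions were taken, so the spread between samples may in part be technical.

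Most kinesins move cargo toward the plus ends of microtubules, which in an axon point away from the cell body, and cytoplasmic dynein 1 moves cargo back. A neuron depends on both, since vesicles, mitochondria and proteins made in the cell body must travel the length of the axon and signals must return. Other kinesins do not carry cargo in resting cells but build the spindle of dividing cells, and dynein 2 with a few kinesins works inside cilia.

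The libraries held from 15392006 to 18723390 counts, and 50 of the 54 genes had at least 1 count in each of them. Markers of neurons were present, with 7 of 7 at a mean of at least 1 RPKM (counts divided by gene length and by the total of the library) and a summed level of 948, 873, 897, 862 and 804 RPKM. Markers of some regional neurons differed more between the libraries. The 5 markers of cerebellar granule cells had mean log2 deviations of 1.30, -0.99, -1.91, 2.58 and -0.98, and the 6 markers of monoaminergic neurons 0.56, 1.20, -1.79, 0.11 and -0.09. Single monoaminergic markers did not all follow their mean in mouse 11. There Dbh, which had no count, deviated by -2.82 and Slc18a2 by -0.09. Tph2, Slc6a4, Th and Ddc deviated by 0.76, 0.62, 0.70 and 0.31 in that mouse. Single granule cell markers did not all follow their mean either. Neurod1 and Zic1 deviated by -0.07 and -0.16 in mouse 7, and by 0.38 and 0.22 in mouse 11. Cbln3, Gabra6 and Fat2 had the opposite signs in both mice. Cbln3 had no count in mouse 9, and Gabra6 had none in mice 9 and 11. Fat2, a granule cell gene named after its values were seen, had an unadjusted p of 6.0e-05 and an adjusted p of 0.731 in edgeR. The part of tissue content in the differences between mice given below was not tested. The library of mouse 11 stood apart from the others in the GC content of what it held. Across 16264 genes of the table with a known GC content, the Spearman correlation of GC content with the deviation of log2 CPM (counts scaled to the library total) from the mean of the 5 mice was 0.72 in mouse 11 and lay between -0.43 and -0.03 in the other 4. This is a correlation over genes within each library, and genes are not independent replicates. Levels that rest on mouse 11 or on mouse 7 are therefore given with and without that mouse, and log2 CPM after removing the trends with GC content and length are given beside the plain ones. Errors are SDs over the 5 mice throughout (n = 5).

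Most motor genes of intracellular transport were expressed in the aged brain, while mitotic and ciliary kinesins were near the limit of detection or low. A mean of at least 1 RPKM was reached by 32 of the 54 genes, or 59.3%, against 12035 of the 21620 protein-coding genes, or 55.7%. At least 10 RPKM were reached by 22 genes and at least 100 RPKM by 5, namely Kif5a, Kif1a, Klc1, Kif5c and Kifc2. The mean of Kifc2 without mouse 11 was 96.3 RPKM, below that limit. Outside the mitotic and ciliary kinesins, 31 of 34 genes had at least 1 RPKM. The median over the 54 genes was 4.34 RPKM and that over all protein-coding genes 1.77 RPKM, and 9 of the motor genes were among the 1000 most abundant protein-coding genes. Together the 54 genes took 1.17% ± 0.0498 of all counts, and their RPKM summed to 1755, 1660, 1696, 1623 and 1648.

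The heavy chains of kinesin-1 held the largest part of this sum, 31.7% ± 3.33, followed by the kinesin-3 genes with 20.4% ± 1.20, cytoplasmic dynein 1 with 15.7% ± 1.05 and the kinesin light chains with 12.1% ± 1.92. The kinesin-14 genes outside mitosis held 7.38% ± 2.30, kinesin-2 held 5.16% ± 0.386, the neuronal kinesin-4 genes 2.84% ± 0.541, Kif1bp 2.25% ± 0.156, dynein 2 held 1.001% ± 0.178 and Kif2a 0.873% ± 0.110. The 6 ciliary kinesins held 0.227% ± 0.0463, the 3 atypical genes Kif26a, Kif26b and Kif12 held 0.196% ± 0.0244, and the 14 mitotic kinesins 0.173% ± 0.0404. The first and the second group kept apart in every mouse, since the kinesin-1 share was lowest in mouse 11 at 26.5% and the kinesin-3 share was highest there at 21.6%. The kinesin-14 share was 11.5% in mouse 11 and between 6.08% and 6.85% in the other 4 mice, and its mean without mouse 11 was 6.36%.

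**Figure D1:**
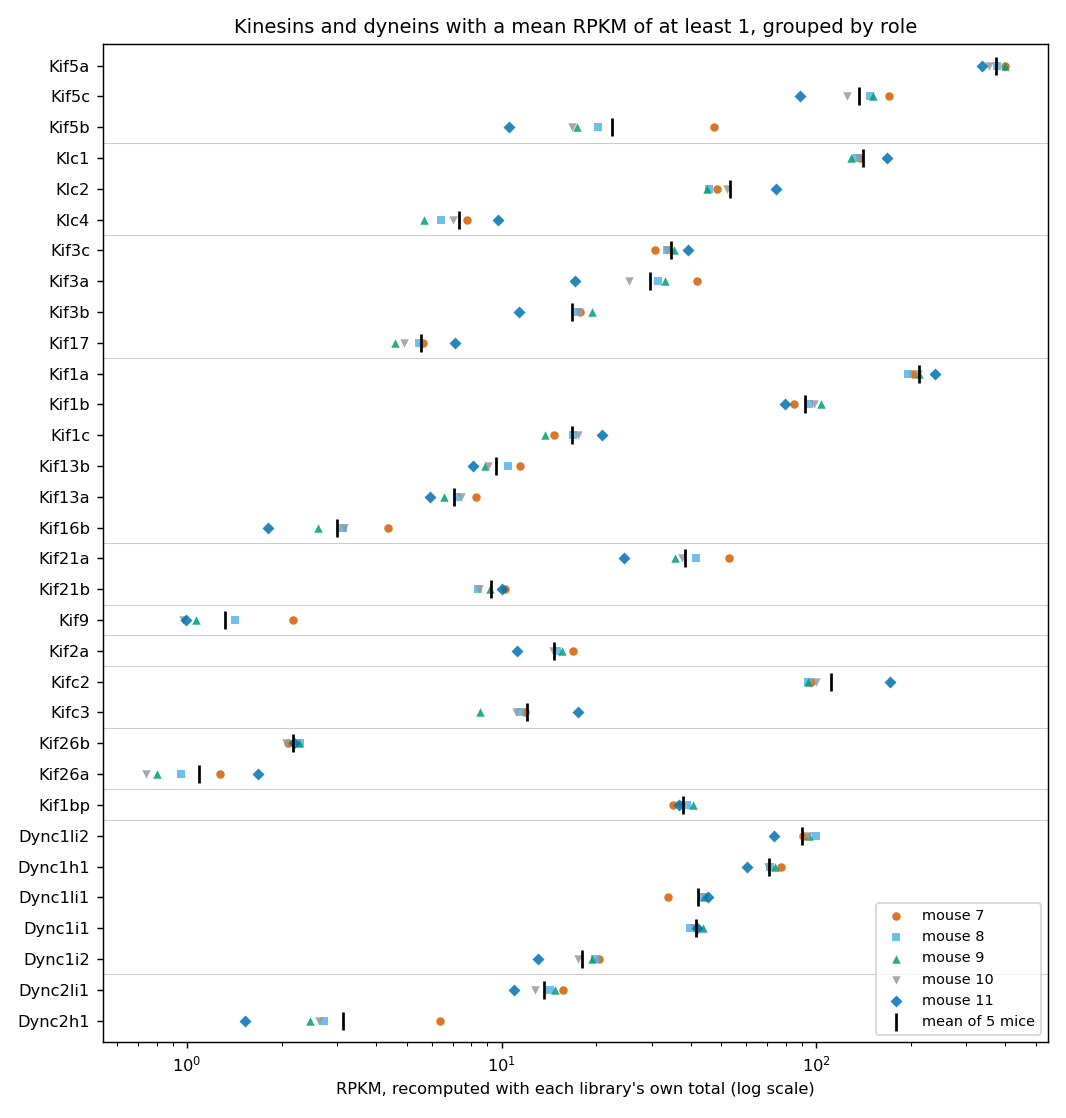
RPKM of the 32 motor genes with a mean of at least 1 RPKM (log scale), 1 symbol per mouse and a black bar for the mean of the 5 mice, with the genes grouped by role from kinesin-1 heavy chains at the top to dynein 2 at the bottom. Kif5a at 373 RPKM and Kif1a at 212 RPKM stand above the rest, and the widest ranges, as that of Kif5b, have mouse 7 and mouse 11 at their ends.

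Kif5a, the neuron-specific heavy chain of kinesin-1, was the most abundant motor gene of the brain. It lies on chromosome 10 (127225696 to 127263348, minus strand, GRCm38) and had 398, 376, 400, 354 and 337 RPKM, or 373 ± 27.3, which placed it at rank 37 of the protein-coding genes. Its 5 values lay above those of every other motor gene in every mouse. Kif5c, the second neuronal heavy chain, on chromosome 2 (49619298 to 49774778, plus strand), had 170, 149, 151, 126 and 89.0 RPKM, or 137 ± 31.2. Its value in mouse 11 was the lowest. Kif5b, the heavy chain that most cell types of the body use, on chromosome 18 (6201002 to 6242174, minus strand), had 47.6, 20.3, 17.4, 16.8 and 10.6 RPKM, or 22.5 ± 14.4. Mouse 7 stood above the other 4 by a factor of 2.35 over the next, and the mean without it was 16.3 RPKM.

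Within the kinesin-1 heavy chains, Kif5a therefore made up 70.5% ± 4.55 of the summed RPKM, Kif5c 25.4% ± 2.98 and Kif5b 4.06% ± 2.10. The share of Kif5b was 7.72% in mouse 7 and between 2.42% and 3.72% in the other 4. The log2 ratio of Kif5a over Kif5c was 1.22, 1.33, 1.402, 1.50 and 1.92 (mean 1.48 ± 0.27), and that of Kif5b over Kif5c was -1.84, -2.87, -3.12, -2.90 and -3.06 (mean -2.76 ± 0.52). Kif5a exceeded Kif5b by 4.23 ± 0.71 log2 units, a factor of 18.8. Each of these orders held in 5 of 5 mice.

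Altogether 13 ratios between related genes were compared, each by an exact permutation test that flips signs (two-sided, n = 5). All 13 had the same sign in every mouse, so this exact test gave p = 0.0625 for each and, after Benjamini-Hochberg adjustment over the 13, 0.0625. That is the smallest p that 5 mice allow, and no ratio could have passed 0.05. A log2 ratio here is one of RPKM with a pseudocount of 0.1, since only levels per length can be set against each other between genes.

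The kinesin light chains bind cargo to the tails of the kinesin-1 heavy chains. Klc1, on chromosome 12 (111758849 to 111807844, plus strand), had 138, 134, 130, 137 and 169 RPKM, or 141 ± 15.6. Mouse 11 stood above the other 4, which spanned only 130 to 138 RPKM, and the mean without it was 135 RPKM. Klc2 had 48.6, 45.6, 45.2, 52.3 and 74.6 RPKM, or 53.2 ± 12.3, and again mouse 11 was apart, with a mean of 47.9 RPKM without it. Klc1 exceeded Klc2 by 1.43 ± 0.15 log2 units. Klc4 followed at 7.33 ± 1.55 RPKM. Klc3, known from the sperm tail in rodents, was lowest at 0.875, 0.417, 0.314, 0.400 and 0.847 RPKM, and 28.1% of its exon length overlaps Ercc2 on the opposite strand. Reads of such overlapping genes cannot be told apart here, because the strand setting of the counting is not given in the sources used here.

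The summed RPKM of the light chains over that of the heavy chains was 0.317, 0.342, 0.318, 0.397 and 0.581. Its mean was 0.391 ± 0.111, below 1 in each of the 5 mice, and the ratio was highest in mouse 11. In that mouse the 3 heavy chains lay 0.51 log2 units below their means over the mice on average, and the 4 light chains 0.50 above. With the GC content and length trends removed these 2 deviations were -0.36 and -0.06.

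Kinesin-2 works as a trimer in which Kif3a pairs with Kif3b or Kif3c and binds the adaptor Kifap3. It carries vesicles in axons and builds cilia. Kif3a had 41.8, 31.5, 33.0, 25.4 and 17.1 RPKM (29.8 ± 9.19), highest in mouse 7 and lowest in mouse 11. Kif3b had 17.8, 17.4, 19.3, 17.6 and 11.3 RPKM (16.7 ± 3.10), with mouse 11 below the other 4, whose mean was 18.1 RPKM. Kif3c, the partner found mainly in neurons, had 30.7, 33.7, 35.3, 33.6 and 39.3 RPKM (34.5 ± 3.14), with the lowest coefficient of variation of these genes at 9.09%. An antisense gene, 1110002L01Rik, covers 35.3% of the exon length of Kif3c. It had 272 counts in the 5 libraries together, and the effect of the overlap on the level of Kif3c was not tested.

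Kif3c exceeded Kif3b in every mouse, by 0.78, 0.94, 0.87, 0.93 and 1.79 log2 units (mean 1.06 ± 0.41, and 0.88 without mouse 11). Kif3a exceeded Kif3b by 0.79 ± 0.28 log2 units. The summed RPKM of both partners over that of Kif3a was 1.16, 1.62, 1.66, 2.02 and 2.96 (mean 1.88 ± 0.673), so the partners together were above Kif3a in 5 of 5 mice, least so in mouse 7 and most in mouse 11. Kifap3 itself had 79.5 ± 18.4 RPKM. Kif17, a kinesin-2 that works without Kif3a and moves vesicles in dendrites, was lower at 5.63, 5.46, 4.58, 4.90 and 7.13 RPKM.

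Kinesin-3 motors carry the precursors of synaptic vesicles and dense-core vesicles over long distances. Kif1a, on chromosome 1 (93015464 to 93101951, minus strand), had 203, 196, 212, 211 and 239 RPKM (212 ± 16.3), rank 98 of the protein-coding genes. Kif1b, which also carries mitochondria, had 85.1, 95.3, 104, 98.4 and 79.7 RPKM (92.5 ± 9.83). The ranges of these genes did not overlap, and Kif1a exceeded Kif1b by 1.20 ± 0.23 log2 units. Kif1c had 14.6, 16.9, 13.8, 17.4 and 20.8 RPKM (16.7 ± 2.76), which is 2.47 ± 0.35 log2 units below Kif1b.

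Kif13b had 11.4, 10.5, 8.85, 9.08 and 8.13 RPKM (9.60 ± 1.34), and Kif13a 8.28, 7.22, 6.56, 7.42 and 5.94 RPKM (7.08 ± 0.887). Kif13a lay 0.43 ± 0.09 log2 units below Kif13b in this scaling, but 0.53 above it when the exon length of GENCODE M21 was used, so their order depends on the length assigned to them. Kif13b had a mean of 4.13 RPKM with that length. Kif16b, which moves early endosomes, had 3.01 ± 0.928 RPKM and was highest in mouse 7. Kif28 had 8 counts in the 5 libraries together.

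The neuronal kinesin-4 genes Kif21a and Kif21b restrain the growth of microtubule ends. Kif21a had 52.7, 41.7, 35.6, 37.6 and 24.6 RPKM (38.4 ± 10.2), and Kif21b 10.2, 8.44, 9.21, 8.46 and 10.1 RPKM (9.28 ± 0.857). Kif21a was higher in every mouse, by 2.00 ± 0.43 log2 units, and the gap was smallest in mouse 11 at 1.28. Kif2a, a kinesin-13 that takes microtubules apart and limits axon branches, had 16.9, 15.1, 15.5, 14.6 and 11.2 RPKM (14.6 ± 2.10). Dimt1 overlaps 19.2% of its exon length on the opposite strand. Kif1bp had 35.1, 38.9, 40.7, 37.0 and 36.7 RPKM (37.7 ± 2.19), a narrow range.

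Kinesin-14 motors have the motor domain at the other end of the chain and walk toward minus ends. Kifc2, on chromosome 15 (76659858 to 76668196, plus strand), had 96.1, 94.2, 94.6, 100.1 and 172 RPKM (111 ± 33.8). Mouse 11 was 1.71 times the next, while the other 4 lay close together, and the mean without it was 96.3 RPKM. Its deviation in mouse 11 was 0.70 log2 units, and 0.12 with the GC content and length trends removed. Kifc3 had 11.9, 11.4, 8.53, 11.1 and 17.5 RPKM (12.1 ± 3.29), also highest in mouse 11. Kif26b and Kif26a, kinesins without motor activity, had 2.18 ± 0.0996 and 1.09 ± 0.390 RPKM, and Kif12 had 3 counts in all.

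Cytoplasmic dynein 1 is built from a pair of heavy chains that hold the motor, intermediate chains that bind its partner dynactin, and light intermediate chains that bind cargo adaptors. The heavy chain Dync1h1, on chromosome 12 (110601452 to 110666945, plus strand), had 77.2, 71.6, 74.2, 70.3 and 60.1 RPKM (70.7 ± 6.46). Mouse 11 was lowest and the other 4 lay close together. The light intermediate chain Dync1li2 had 90.6, 99.8, 94.7, 94.1 and 73.4 RPKM (90.5 ± 10.1). Its relative Dync1li1 had 33.9, 43.7, 44.1, 44.2 and 45.2 RPKM (42.2 ± 4.68), with mouse 7 below the other 4, which lay close together, and a mean of 44.3 RPKM without mouse 7.

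Dync1i1, the intermediate chain found mainly in neurons, had 41.8, 39.9, 43.8, 40.9 and 41.9 RPKM (41.7 ± 1.44). Its coefficient of variation of 3.45% was the lowest of all motor genes. Dync1i2, the intermediate chain of most tissues, had 20.4, 19.8, 19.4, 17.5 and 13.1 RPKM (18.0 ± 2.97). Dync1i1 exceeded Dync1i2 by 1.22 ± 0.27 log2 units, and Dync1li1 lay 1.10 ± 0.26 below Dync1li2. Per heavy chain, the summed RPKM of the intermediate chains was 0.847 ± 0.0411 and that of the light intermediate chains 1.89 ± 0.160, or 1.39 with the M21 exon lengths. The first ratio was below 1 and the second above 1 in every mouse.

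Dynein 2 moves cargo back from the tips of cilia. Its heavy chain Dync2h1, on chromosome 9 (6928503 to 7184446, minus strand), had 6.37, 2.73, 2.46, 2.62 and 1.53 RPKM (3.14 ± 1.87). Mouse 7 was 2.34 times the next, and the mean without it was 2.34 RPKM. Dync2h1 lay 4.60 ± 0.61 log2 units below Dync1h1, a factor of 24.2. Its light intermediate chain Dync2li1 had 15.7, 14.2, 14.8, 12.8 and 10.97 RPKM (13.7 ± 1.84), above the heavy chain in every mouse. The intermediate chains of dynein 2, Wdr34 and Wdr60, which the symbol rule does not take, had 9.48 ± 2.08 and 5.03 ± 1.06 RPKM.

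**Figure D2:**
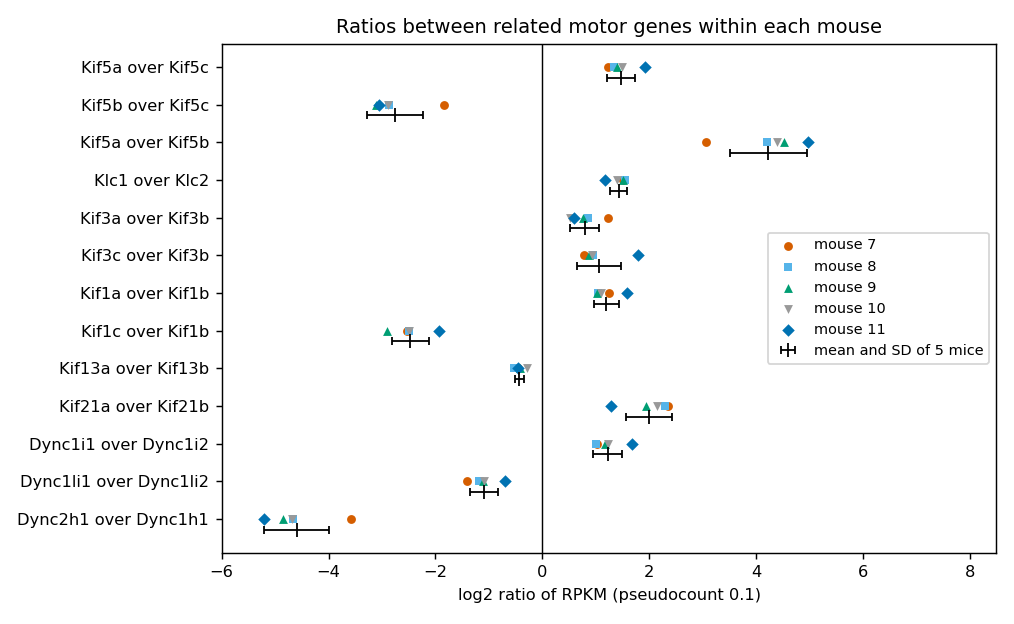
Log2 ratios of RPKM (pseudocount 0.1) between 13 pairs of related motor genes, 1 symbol per mouse, with the mean and SD of the 5 mice drawn in black just under them. No pair crosses 0, Dync2h1 over Dync1h1 lies farthest below it at -4.60 and Kif5a over Kif5b farthest above it at 4.23, and mouse 7 stands apart for Kif5b over Kif5c.

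In the order of levels, genes stood clear of their neighbours only at the top. Each of the 32 genes with at least 1 RPKM was compared with the next lower gene of the family. The ranges over the mice did not overlap for 2 of these 32 neighbours, Kif5a over Kif1a and Kif1a over Klc1. The same order in all 5 mice was found for 7 neighbours, which add Dync1li2 over Dync1h1, Klc2 over Dync1li1, Kif3b over Kif2a, Kif2a over Dync2li1 and Kif21b over Klc4. For the other 25 at least 1 mouse had the reverse order, as for Klc1 over Kif5c, which held in 2 of 5 mice. These orders hold for the lengths used. With the exon length of GENCODE M21, Dync1li2 had a mean of 69.6 RPKM, below Dync1h1 at 70.7, whose length stayed the same. Kif2a has 6393 bases there against 7046 used, while Kif3b keeps 5635, so their order also depends on the length.

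The ciliary kinesins were low. Kif9, which works in motile cilia and sperm tails, was highest at 2.17, 1.42, 1.07, 0.972 and 0.994 RPKM. Kif27, Kif19a, Kif6 and Kif7 had means of 0.840, 0.525, 0.468 and 0.340 RPKM, and Kif24 was lowest at 0.409, 0.300, 0.382, 0.334 and 0.200. All 6 passed a mean count of 10. Their mean log2 deviations were 0.41, 0.03, -0.08, -0.20 and -0.17 over the mice, and those of the 10 ependyma markers, genes of the ciliated lining of the brain ventricles, were 0.39, 0.09, -0.28, -0.04 and -0.16. Mouse 7 was highest in the mean of both lists, but not for every gene. Kif9, Kif27 and Kif24 were highest in mouse 7, and Kif6 and Kif7 in mouse 8. Kif19a deviated by 0.58 in mouse 7 and by 0.59 in mouse 11. Of the ependyma markers, Foxj1, Tmem212 and Ccdc153 were highest in mouse 11, Hydin in mouse 9 and the others in mouse 7. Their summed RPKM was 10.7 in mouse 7 and 11.8 in mouse 11. In RNA from whole tissue, fewer cells of a type and less RNA per cell cannot be told apart.

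None of the 14 mitotic kinesins reached 1 RPKM, and 8 of them had a mean count of at least 10. Kif22, a kinesin that binds chromosome arms, was highest with 0.774, 0.715, 0.534, 0.801 and 0.490 RPKM. Kifc5b and Kifc1, near-identical copies whose reads may be shared, had 0.488 ± 0.144 and 0.382 ± 0.157 RPKM. Kif20a, which acts in cytokinesis, had 0.408 ± 0.137 RPKM, and 29.3% of its exon length overlaps Cdc23 on the opposite strand. Kif23, the kinesin of the central spindle, had 0.350 ± 0.112 RPKM. Kif11, the motor that pushes the spindle poles apart, had 0.307, 0.0944, 0.212, 0.0906 and 0.0998 RPKM.

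Kif15, which can stand in for Kif11, had 36, 8, 6, 11 and 2 counts, or 0.481, 0.108, 0.0795, 0.142 and 0.0222 RPKM. Mouse 7 stood above the rest by a factor of 3.38 over the next, and the mean was 0.167 ± 0.181 RPKM with it and 0.0880 RPKM without it. Kif4, a chromosome-binding kinesin, had 20, 22, 4, 4 and 1 counts, high in mice 7 and 8, and Pdzd11 overlaps 15.1% of its exon length. Kif20b, Kif2c, Kif18a and Kif14 had means from 0.0330 to 0.0664 RPKM. Kif2b and Kif18b had no count in any library, which leaves room for up to 3 counts in a library, by counting error only.

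The same low level was seen in 11 markers of dividing cells. None of them reached 1 RPKM, 6 had a mean count of at least 10, and Ccnb1 had 0 counts in 2 of the 5 libraries. Mki67, the proliferation marker Ki-67, had 29, 22, 13, 16 and 2 counts. The mean log2 deviations were 0.89, 0.25, -0.14, -0.43 and -0.56 for these 6 markers, and 0.66, 0.15, -0.23, 0.10 and -0.67 for the 8 mitotic kinesins above that count. With the GC content and length trends removed they were 0.72, 0.21, -0.18, -0.45 and -0.30 for the markers, and 0.59, 0.15, -0.24, 0.09 and -0.60 for the kinesins. In these means mouse 7 was highest for both lists either way. Mouse 11 was lowest for both only as counted, since mouse 10 was lowest for the markers with the trends removed. Single genes of both lists differed from the mean. Of the 6 markers, as counted, Ccna2 was highest in mouse 8 and the others in mouse 7. In mouse 11 Plk1 and Cenpe lay 0.61 and 0.35 above their means, and the other markers below theirs. As counted, Kif15, Kif11 and Kifc1 were highest in mouse 7, but Kif4 and Kif20a in mouse 8, Kif22 and Kif23 in mouse 10, and Kifc5b in mouse 11. The part of dividing cells in the values of the mitotic kinesins was not tested.

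**Figure D3:**
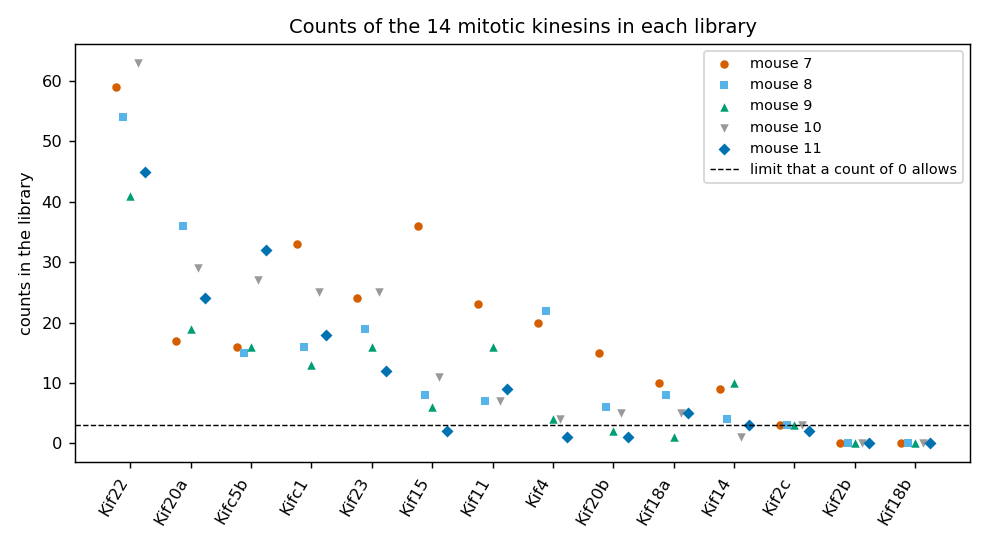
Counts of the 14 mitotic kinesins in each of the 5 libraries, ordered by mean count, with a dashed line at 3, the count that a value of 0 allows. No gene passes 63 counts, Kif15 reaches 36 in mouse 7 only, and Kif2b and Kif18b are at 0 in all 5 libraries.

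The letters of an element known from cell-cycle genes were present in most promoters of mitotic kinesins. RefSeq promoters of GRCm38.p6, from 250 bases before to 50 bases after the start, were found by symbol for 41 of the 54 genes. Those of Dync1li2, Dync2li1, Kif13b, Kif19a, Kif1bp, Kif20a, Kif21b, Kif28, Kif5a, Kif5b, Kifc2, Kifc3 and Klc2 were not matched. The cell-cycle homology region, TTTGAA or TTCGAA on either strand, is the element through which the DREAM complex silences genes in resting cells. It was found in 11 of 13 promoters of mitotic kinesins, against 4 of 28 promoters of the other motor genes and 19.2% of all 32851 promoters. Kif18a and Kif2b were the mitotic kinesins without it, and Kif1a, Kif24, Kif26b and Kif27 the others with it. CCAAT on either strand was in 9 of 13 and in 10 of 28, against 37.4% of all promoters. In all, 11 motifs were searched, and a match is a description of letters, not of a bound site. The promoters of 3 mitotic kinesins are shown because the element, in capitals, lies near the start in each, beginning 19 bases before it in Kif11 and 3 and 20 bases after it in Kif23 and Kif4.
Kif11 promoter, chr19:37376132-37376431, plus strand: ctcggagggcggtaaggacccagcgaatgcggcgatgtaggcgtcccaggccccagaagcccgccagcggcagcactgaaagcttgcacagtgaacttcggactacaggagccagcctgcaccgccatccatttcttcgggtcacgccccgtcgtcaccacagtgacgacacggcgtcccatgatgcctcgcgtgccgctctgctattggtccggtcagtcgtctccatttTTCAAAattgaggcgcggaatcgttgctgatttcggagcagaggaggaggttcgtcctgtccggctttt
Kif23 promoter, chr9:61946750-61947049, minus strand: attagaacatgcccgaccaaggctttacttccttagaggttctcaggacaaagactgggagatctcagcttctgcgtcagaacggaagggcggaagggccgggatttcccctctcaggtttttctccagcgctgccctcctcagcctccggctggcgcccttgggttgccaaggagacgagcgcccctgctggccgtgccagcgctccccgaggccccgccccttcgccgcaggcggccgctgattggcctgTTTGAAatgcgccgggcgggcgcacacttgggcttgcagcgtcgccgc
Kif4 promoter, chrX:100625815-100626114, plus strand: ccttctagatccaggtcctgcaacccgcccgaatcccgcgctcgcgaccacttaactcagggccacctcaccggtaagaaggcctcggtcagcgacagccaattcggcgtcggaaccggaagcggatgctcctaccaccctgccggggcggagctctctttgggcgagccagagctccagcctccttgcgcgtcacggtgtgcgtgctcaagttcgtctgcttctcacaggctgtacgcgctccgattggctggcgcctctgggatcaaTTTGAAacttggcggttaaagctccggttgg

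The full cAMP response element, TGACGTCA, a palindrome bound by CREB, was found in the promoters of the abundant Kif5c and Klc1, of the lower Kif17 and of the mitotic Kif18a. That is 4 of 41, against 1.79% of all promoters. The GC box GGGCGG on either strand was in 27 of 41 promoters, against 35.7% of all. The short RFX core GTTGCC of cilia genes, on either strand, was in 2 of 13 promoters of mitotic kinesins and 12 of 28 of the other motor genes, against 12.5% of all promoters. Of the ciliary kinesins with a promoter, Kif9 and Kif24 had this core and Kif6, Kif7 and Kif27 did not. Transport genes such as Kif1a, Dync1i1 and Dync1i2 had it as well. The full RFX motif was in none of the 41, and in only 0.128% of all. The promoters of Kif5c and Klc1 are shown with the cAMP response element in capitals, which begins 26 and 33 bases before the start.
Kif5c promoter, chr2:49619036-49619335, plus strand: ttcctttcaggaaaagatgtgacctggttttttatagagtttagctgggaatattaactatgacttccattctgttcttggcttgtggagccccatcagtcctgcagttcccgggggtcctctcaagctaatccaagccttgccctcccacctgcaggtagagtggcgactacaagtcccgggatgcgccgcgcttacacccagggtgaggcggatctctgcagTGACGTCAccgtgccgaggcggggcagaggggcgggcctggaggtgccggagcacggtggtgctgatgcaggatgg
Klc1 promoter, chr12:111758618-111758917, plus strand: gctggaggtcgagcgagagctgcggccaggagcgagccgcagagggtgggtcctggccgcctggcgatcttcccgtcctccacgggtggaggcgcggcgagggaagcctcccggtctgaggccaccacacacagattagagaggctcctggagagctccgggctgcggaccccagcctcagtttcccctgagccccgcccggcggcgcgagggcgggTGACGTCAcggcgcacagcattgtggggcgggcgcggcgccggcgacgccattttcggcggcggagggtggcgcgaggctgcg

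Differences between the mice were tested for all genes together. Each gene's dispersion in edgeR's quasi-likelihood fit was compared with that of genes at the same level, for the 16318 genes whose mean count was 10 or more, among them 46 of the 54 motor genes. At a Benjamini-Hochberg adjusted p of 0.05, 0 of the 46 were called variable, and percent called over all genes was 0 as well. The comparison was fitted to these same genes, so a gene is called only where it exceeds the spread common among them. For that reason the share of all genes with an unadjusted p under 0.05 in edgeR lies near that threshold by construction. Fat2, at 9 to 638 counts, had an adjusted p of 0.731 in edgeR, so 0 calls do not show that levels were alike. At an unadjusted p under 0.05, edgeR gave 4 of 46 motor genes, or 8.70%, against 814 of all 16318 genes, or 4.99%. These were Kif5b, Dync2h1, Kif4 and Kif15, with unadjusted p-values in edgeR's fit across all genes of 0.00320, 0.00724, 0.0429 and 0.0442, and an adjusted p of 0.970 in edgeR for each. With no filter beyond 1 count in a library, edgeR called 230 of 28335 genes, or 0.812%, and 2 of the motor genes, Kif5b with an adjusted p of 0.00177 and Dync2h1 with 0.0125. All other scalings and filters, and the fits without each mouse, called 0. The median dispersion, relative to that fitted at the same level, was 0.849 over the 46 motor genes and 0.950 over all genes.

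Mice 7 and 11 were the ends of most ranges. The highest value was in mouse 7 for 19 of the 46 genes and in mouse 11 for 14, while the lowest was in mouse 11 for 22. Over all genes tested, the highest value was in mouse 7 for 26.3% and in mouse 11 for 35.8%, and the lowest in mouse 11 for 34.2%. With the GC content and length trends removed, 25 motor genes had their highest value in mouse 7 and 6 in mouse 11, while 22 had their lowest in mouse 11. Over all genes the corresponding shares were 26.1%, 27.0% and 27.0%. The lowest value was in mouse 7 for 4 of the 46 genes as counted, against 23.3% of all genes, and for 6 with the trends removed, against 27.2%. The mean deviation of the 46 genes was 0.29, 0.01, -0.08, -0.06 and -0.16 log2 units, and 0.28, 0.05, -0.06, -0.06 and -0.22 with the trends removed.

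**Figure D4:**
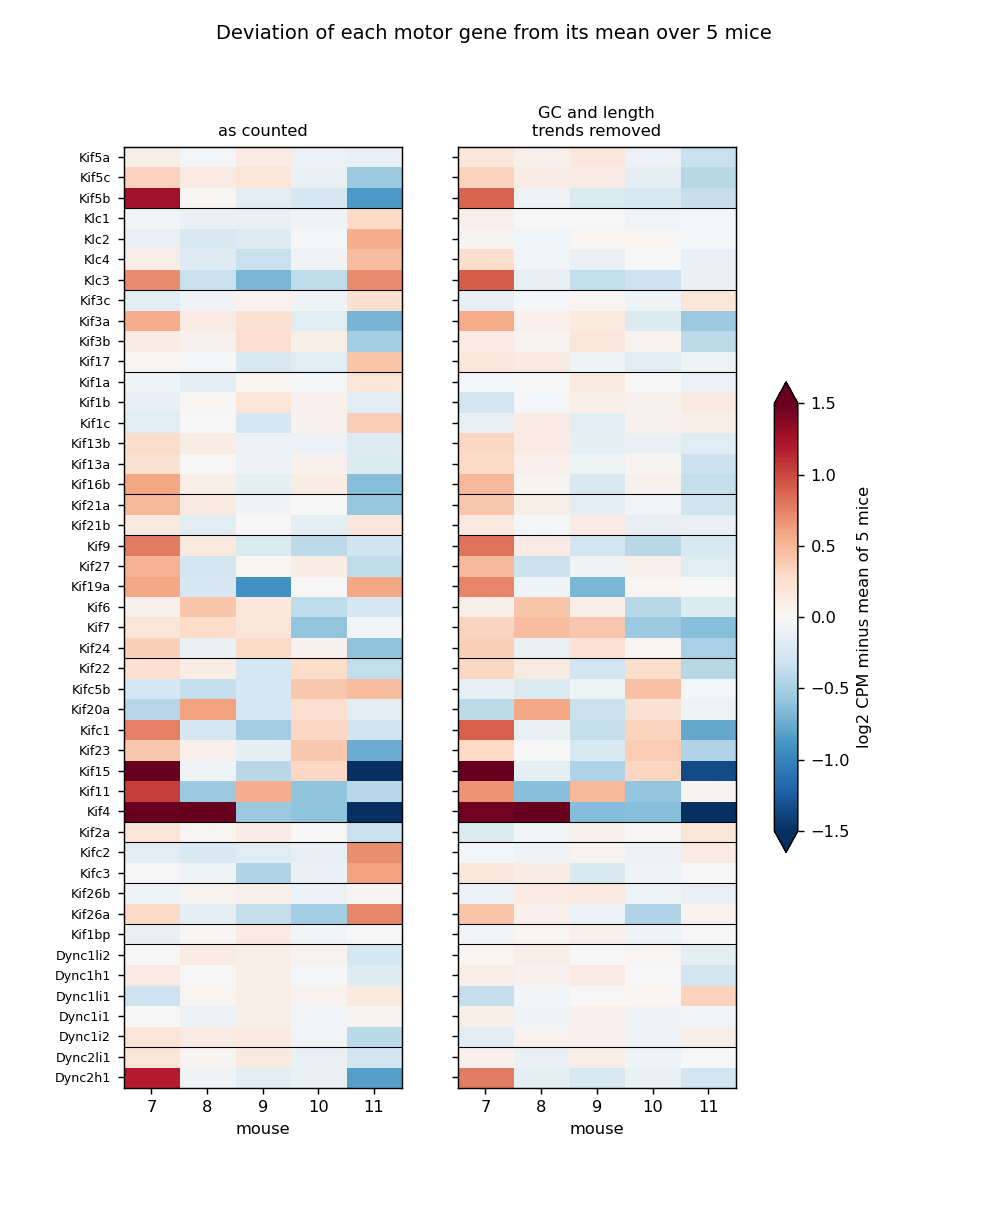
Deviation of log2 CPM from the mean of the 5 mice for the 46 motor genes whose mean count was 10 or more, with the genes in rows grouped by role and the mice in columns, as counted on the left and with GC content and length trends removed on the right. Mouse 7 is red for Kif5b, Dync2h1 and several mitotic and ciliary kinesins in both panels, and the strong red of Klc2 and Kifc2 in mouse 11 is on the left only, where they reach 0.55 and 0.70.

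More than 1 log2 unit above the mean in mouse 7 were 5 of the 46 motor genes, or 10.9%, against 3.01% of all genes tested. They were Dync2h1, Kif11, Kif15, Kif4 and Kif5b. With the trends removed, Kif15 and Kif4 remained above that limit, 2 of 46 or 4.35%, against 1.23% of all genes. More than 1 log2 unit below the mean in mouse 11 were 2 of 46, again Kif15 and Kif4, or 4.35%, against 3.41% of all genes, and the same 2 with the trends removed, against 1.89%. None of the 46 was that far above the mean in mouse 11, where 1.38% of all genes were, or that far below it in mouse 7, where 0.564% were. Both genes had at most 36 counts in any library.

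GC content moved with these deviations within the family. Across the 46 genes, its Spearman correlation with the deviation in mouse 11 was 0.83, against 0.72 over all 16264 genes. With the trends removed it was 0.15, against -0.02 over all genes. The removal subtracts each library's own trend over all genes, so a weak correlation afterwards follows from that step. In mouse 7 the correlation as counted was -0.37, against -0.43 over all genes. The points share their library, so this describes the 2 libraries. The 6 motor genes with a GC content below 45% deviated by 0.98 log2 units on average in mouse 7 and by -0.78 in mouse 11, where all 6 were below the mean. With the trends removed these averages were 0.59 and -0.28. The 15 genes with a GC content of 55% or more deviated by 0.40 in mouse 11, where 13 of 15 were above the mean, and by -0.11 with the trends removed.

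Some single genes kept their deviation when the trends were removed and some did not. Kif5b, with a GC content of 42.1%, deviated by 1.26 in mouse 7, and by 0.87 with the trends removed. Dync2h1, at 43.3%, deviated by 1.18 there, and by 0.76 with them removed. Kif3a, at 48.1%, had 0.54 and 0.55 in mouse 7 and -0.70 and -0.56 in mouse 11, as counted and with the trends removed. Dync1li1, at 46.9%, deviated by -0.31 in mouse 7, and by -0.35 with the trends removed. Kifc2 and Klc2, both above 59%, deviated by 0.70 and 0.55 in mouse 11, but by 0.12 and -0.02 with the trends removed. The part of GC content in these values was not tested further.

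**Figure D5:**
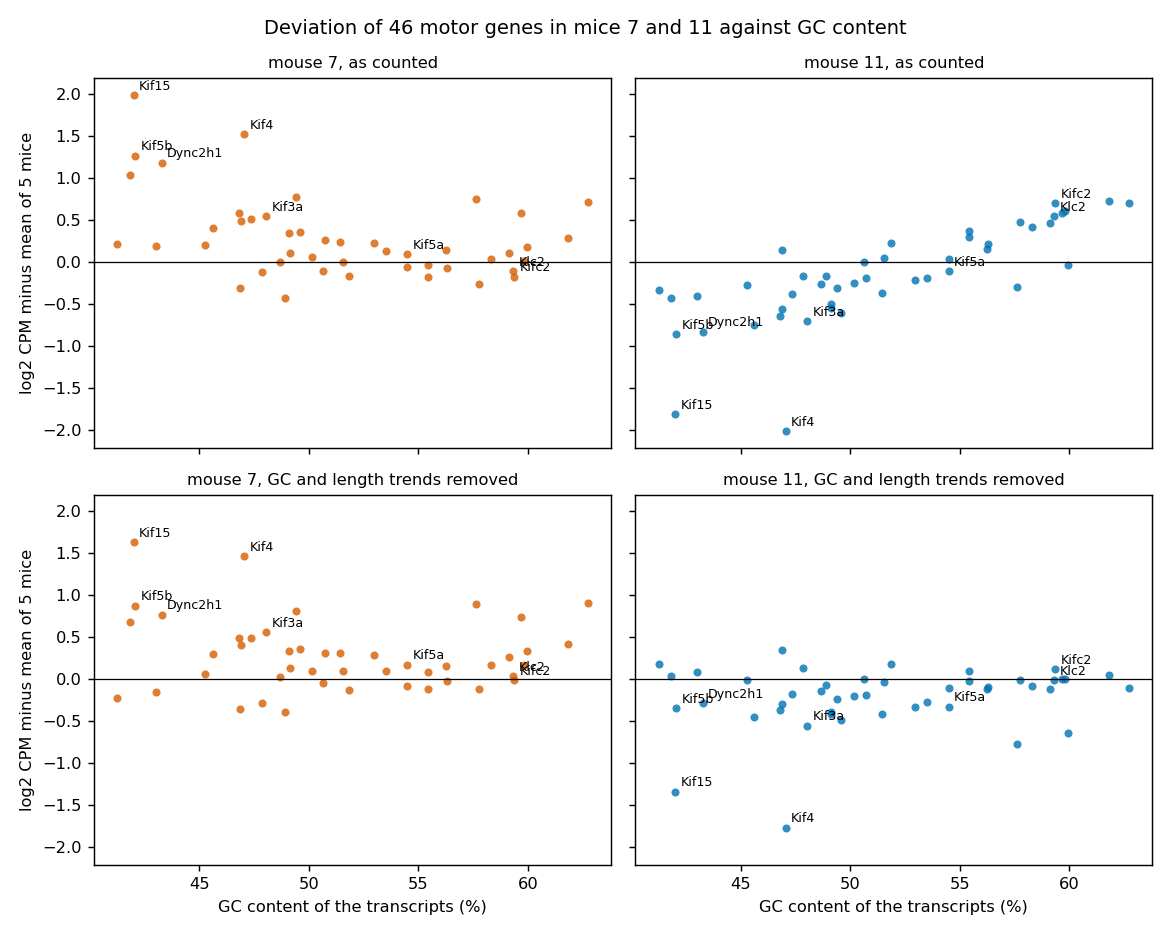
Deviation of log2 CPM from the mean of the 5 mice against the GC content of the transcripts (%) for 46 motor genes in mouse 7 and mouse 11, as counted above and with GC content and length trends removed below, 1 point per gene. In mouse 11 the points climb with GC content as counted, with a Spearman correlation of 0.83. They lie flat after removal at 0.15, which follows from subtracting each library's own trend. Kif15 and Kif4 stay highest in mouse 7.

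All listed partners of the motors were in the table, and none was called variable by edgeR at a mean count of at least 10, where 0 of all 16318 genes were. Of 9 dynactin genes, which tie dynein to its cargo, 9 had at least 1 RPKM, from Dctn6 at 14.7 ± 1.47 to Actr1a, the filament subunit, at 87.9 ± 11.2. None of the 9 had an unadjusted p under 0.05. Of 14 adaptors and regulators of kinesins, all had at least 1 RPKM, from Rhot2, a mitochondrial GTPase, at 7.53 ± 1.53 to Clstn1, which links vesicles to Klc1, at 296 ± 52.7. None of these 14 had an unadjusted p under 0.05 either.

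Of 12 dynein regulators and adaptors, 10 had at least 1 RPKM. Pafah1b1, the Lis1 protein that holds dynein to microtubules, was highest at 88.7, 60.4, 55.7, 55.5 and 36.9 RPKM, and Spdl1, which brings dynein to kinetochores, was lowest at 0.134 ± 0.119. Of 9 dynein light chains, 6 had at least 1 RPKM, and Dynll2 was highest at 191 ± 31.2. Dynlt1a, Dynlt1b, Dynlt1c and Dynlt1f are near-identical copies whose counts are uncertain, and Dynlt1c was lowest at 0.0135 RPKM.

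Of the 42 partners with a mean count of at least 10, 3 or 7.14% had an unadjusted p under 0.05 in edgeR, against 4.99% of all genes, and they are named after their values were seen. Hook1, which joins dynein to endosomes, had 12.7, 4.43, 4.91, 4.49 and 2.74 RPKM. Dynlt3, a dynein light chain, had 53.6, 26.0, 23.8, 21.5 and 14.7 RPKM, and Hook3, a relative of Hook1, had 11.2, 7.06, 5.68, 6.69 and 4.31 RPKM. In the edgeR fit across all genes their unadjusted p-values were 0.00443 for Hook1, 0.00958 for Dynlt3 and 0.0393 for Hook3. The highest value of all 3 was in mouse 7 and the lowest in mouse 11, and their GC contents of 40.7%, 40.9% and 38.9% were low. With the trends removed, the deviations in mouse 7 were 0.84 for Hook1, 0.68 for Dynlt3 and 0.16 for Hook3, against 1.31, 1.07 and 0.75 as counted.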

How the data were processed

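Libraries of brain RNA were made with an Illumina mRNA kit, per the labels' protocols. Raw counts per gene were deposited for the 5 libraries, with RPKM that the authors made from them. The submitters' processing notes name GRCm38 and the tools featureCounts 1.4.6-p4, STAR 2.4.1d and CASAVA 1.7; their settings, the annotation release and the strand setting are not given in the sources used here. The lengths implied by the deposited RPKM agreed within 1% over the 5 libraries for all 12729 genes checked only when the totals of the 5 libraries were cycled down the table, and for 0 with each library's own total. The deposited RPKM lay between 0.821 and 1.22 times the value with the own total, so RPKM were recomputed from the counts, the implied length and the library's own total.

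Symbols, gene types, GC content and coordinates come from GENCODE M21 (47224 of 47729 genes matched; the others held 0.0770% of counts). The 5 libraries were kept as separate samples, since the mean chi-square of a gene between 2 of them was at least 7.02 and up to 101. Variation between mice was tested with edgeR 4.0.16 (TMM scaling, mean count of at least 10, an intercept only) and limma 3.58.1, with Benjamini-Hochberg adjustment over all genes, and the fit was tested on simulated data. The design has 1 group, so no contrast was made. Log2 CPM used a prior count of 1. GC content and length trends were removed by a smooth curve in each library. A mouse was taken as far from the other 4 when its gap to the nearest exceeded 0.71 of the range. Alternatives were DESeq2 1.42.0 size factors, library size only, other filters and pseudocounts, the deposited RPKM, M21 exon lengths and leaving out each mouse; 1 setting, dispersions adjusted for small counts, and the M21 and deposited values of the subunit ratios were chosen after seeing the data. The genes and all lists were chosen with earlier results of these data known. Values by mouse are given for the highest and lowest gene of each role, for pairs and for genes with 1 mouse far from the rest.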

Additional observations from a re-analysis of the deposited data

Results flagged for a closer look

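Among the 46 motor genes whose mean count was 10 or more, 8 had 1 mouse far from the other 4, or 17.4%, against 12.02% of all 16318 genes at that count. The nominal rate of this rule is about 1 in 20, below the 12.02% found over all genes of these data. No share of that kind was computed for the ratios and roles below. Mouse 7 was far above the others for Kif5b at 47.6 RPKM, Dync2h1 at 6.37 and Kif15 at 0.481, and far below them for Dync1li1 at 33.9. Mouse 11 was far above for Klc1 at 169 RPKM, Klc2 at 74.6 and Kifc2 at 172, and far below for Kif3b at 11.3. The GC content was 42.1%, 43.3%, 42.0% and 46.9% for Kif5b, Dync2h1, Kif15 and Dync1li1, and 55.4%, 59.3%, 59.4% and 49.1% for Klc1, Klc2, Kifc2 and Kif3b, and its part in these values was not tested.

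Of the 13 ratios, 2 had 1 mouse apart. The log2 ratio of Kif5b over Kif5c was -1.84 in mouse 7, and its mean without that mouse was -2.99. The log2 ratio of Kif3c over Kif3b was 1.79 in mouse 11, with a mean of 0.88 without it. Of the 11 roles with more than 1 gene, the kinesin-14 share stood apart in mouse 11 at 11.5%.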

How the results depend on the processing

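With no filter beyond 1 count in a library, the number of motor genes called variable was 2 and that of all genes 230, against 0 and 0. DESeq2 size factors, library size alone, a mean count of at least 50, removal of the GC content and length trends, dispersions adjusted for small counts and leaving out each mouse gave 0 and 0. With the M21 exon length, the log2 ratio of Kif13a to Kif13b was 0.53, and the shares of Kif2a, Kif1bp, dynein 1 and dynein 2 were 1.03%, 2.41%, 14.6% and 0.815%. Mean RPKM moved by more than 1 SD for 8 genes with that length, to 337 for Kif5a, 8.58 for Kifc3, 69.6 for Dync1li2, 28.4 for Dync1li1, 4.13 for Kif13b, 6.01 for Kif13a, 0.152 for Kif23 and 9.70 for Dync2li1, and the light intermediate chains over Dync1h1 to 1.39; all of this follows from the lengths used. The other 12 ratios kept their sign under every pseudocount, length and left-out mouse tried. Between 30 and 32 motor genes reached 1 RPKM under all alternatives. No paired analysis was possible because there is 1 group. Genes with few counts, as Kif15 and Kif4, are limited by depth.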
